A study of Homo sapiens with 24 samples.

Results

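H/ACA box snoRNAs are small nucleolar RNAs that pair with ribosomal RNA and direct the change of chosen uridines to pseudouridine. Each works in a particle with the pseudouridine synthase dyskerin (DKC1) and the proteins NOP10, NHP2 and GAR1. Most are cut from the introns of host genes that RNA polymerase II transcribes, many of which encode ribosomal proteins, translation factors or long noncoding RNAs of the SNHG (small nucleolar RNA host gene) family. Telomerase RNA (TERC) and many Cajal body RNAs carry the same fold.

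The members were the rows of the study's feature table whose first listed name begins with SNORA and a digit and whose type is not lncRNA. This rule took 195 of 175946 genomic intervals, with 184 distinct names on 23 chromosomes, and used no measured value. Their widths ran from 119 to 752 bp, with a median of 185 bp. RefSeq held an entry of the same name for 187 of the 195 intervals, and 182 of these overlapped it. Sequences of the snoRNAs themselves were not used here, so the H and ACA boxes were not checked. Of the 195 intervals, 167 lay within a RefSeq gene, which gave 129 host genes. For 129 of these 167 the host strand was known and matched. Overlapping or repeated intervals of 1 locus or name left 184 members when each was counted once.

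The study overexpressed the nuclear lamins LMNA, LMNB1 or LMNB2, or the fluorescent protein eGFP as control (GFP below), in HEK293, a human embryonic kidney line labelled wild type. Each of the 4 groups had 3 small RNA libraries, from an RNA preparation enriched for short species, and 3 ATAC libraries, which count transposase cuts in accessible chromatin, for 24 libraries in all. The labels do not say that the replicates came from separate cultures, so the p-values measure the spread between these libraries, which may be technical. Each assay carries 1 batch label, so groups within an assay share it and levels are not compared between assays.

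Small RNA libraries held 132507051 to 195074742 counts, of which 31763 to 100400 fell on H/ACA members, beside 5457035 to 8671109 on C/D box snoRNAs, the class that guides ribose methylation. ATAC libraries held 156043245 to 290158229 counts, with 4671 to 9075 on the members' windows. The TMM scaling factor of the small RNA libraries, which corrects for composition, ran from 0.63 to 1.31, and both extremes were GFP libraries (replicates 1 and 3). The share of small RNA counts on rRNA features was 12.1 to 12.9% in LMNB2 and 5.18 to 10.8% in GFP. Mitochondrial windows took 39.9 to 47.5% of ATAC counts in GFP and 24.5 to 30.7% in LMNB2. The part of these shares in the results was not tested. MicroRNA genes of blood, liver, neurons and muscle reached at most 8 counts in any small RNA library.

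The starts of 6 host genes are shown because most members are cut from host transcripts; all 6 host a member called in LMNB2. Genes of the translation machinery are known for a terminal oligopyrimidine (TOP) start, a C at the first transcribed base followed by a run of pyrimidines. The TOP start was searched on the transcribed strand as C at the first base followed by 4 bases that are each C or T. Each sequence runs from 35 bases before the first transcribed base to the 15th transcribed base, from RefSeq on GRCh38.p14, with the pyrimidine run in capitals.
RPSA (host of SNORA6, chr3:39406685-39406734, plus strand): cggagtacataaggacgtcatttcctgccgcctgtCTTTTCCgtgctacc
EIF4A2 (host of SNORA4, chr3:186783542-186783591, plus strand): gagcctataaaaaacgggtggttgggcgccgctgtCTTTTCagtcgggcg
SNHG12 (host of SNORA16A, chr1:28581859-28581908, minus strand): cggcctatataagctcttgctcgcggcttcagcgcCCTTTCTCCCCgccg
RPL39 (host of SNORA69, chrX:119791616-119791665, minus strand): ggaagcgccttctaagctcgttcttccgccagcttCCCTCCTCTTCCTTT
EIF4A1 (host of SNORA67, chr17:7572790-7572839, plus strand): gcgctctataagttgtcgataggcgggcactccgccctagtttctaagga
SNHG7 (host of SNORA17A, chr9:136728170-136728219, minus strand): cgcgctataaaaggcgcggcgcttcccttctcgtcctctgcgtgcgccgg
RPSA, EIF4A2, SNHG12 and RPL39 had the run at the listed start, and EIF4A1 and SNHG7 did not. Starts were listed for 98 of the 129 host genes, and 21 of these 98 (21.4%) had such a start, beside 1404 of 27305 genes (5.14%) in the whole table. Per listed start, the share was 14.7% of 143 host starts and 4.07% of 35116 starts. Ribosomal protein hosts held it in 8 of 9 genes and SNHG hosts in 2 of 9. Among hosts of the members called in LMNB2 it was found in 6 of the 10 listed. These are matches of letters and no measure of transcription.

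In GFP cells the members differed widely in level. CPM, the count relative to the scaled library total, was divided by interval length (CPM per kb) and ranged from 0.146 to 186 among the 131 members with enough counts to test, with a median of 4.59. SNORA2C, from an intron of KANSL2 (a subunit of a histone acetyltransferase complex), was the highest at 186 ± 140 CPM per kb (SD, n = 3). SNORA18, 1 of 6 tested members in TAF1D, a subunit of the RNA polymerase I initiation factor SL1, followed at 103 ± 75.9. The spread of both was wide: SNORA2C stood at 65.2, 18 and 21.5 CPM in the 3 GFP libraries, and SNORA18 at 34.5, 8.18 and 13.7 CPM. SNORA61 (87.3 ± 18.6 CPM per kb), SNORA7A (81 ± 56), SNORA3A (76.7 ± 15.2) and SNORA74D (71.1 ± 35.7) came next. The ranges of mean and SD of these neighbours in the order overlapped. The members share the same 3 libraries, so overlapping SDs do not show that their levels were alike. In CPM, SNORA2C exceeded SNORA18 in each of the 3 GFP libraries. SNORA21 (58.7), SNORA20 (51.8), SNORA64 (49.8) and SNORA58B (45.4) completed the 10 highest. The 10 members highest in CPM, not divided by length, carried 47.5% of all member CPM, and SNORA2C alone carried 11%. At the other end, 14 members had no count in any library and 31 had at most 3 counts over all 12 libraries. SNORA35, whose host HTR2C is a serotonin receptor gene of brain, had a count in 1 of the 12 libraries only, GFP replicate 3. Members detected in all 12 libraries numbered 137.

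Members of 1 host, which share a primary transcript, differed in level as well. The 6 tested TAF1D members spanned 27.4-fold in GFP, from SNORA40 at 3.74 to SNORA18 at 103 CPM per kb. EIF4A2, an RNA helicase of translation initiation, held SNORA81 at 13.9, SNORA63 at 10.7 and SNORA4 at 0.272 CPM per kb. By contrast, SNORA46 and SNORA50A in CNOT1, a scaffold of the deadenylase complex, stood at nearly the same level (20.1 CPM per kb for the lower of the 2).

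The level of the class as a whole was followed as the median over members of log2 CPM minus each member's GFP mean. GFP stood at 0.01 ± 0.26 (SD, n = 3) and LMNB1 at 0.07 ± 0.12, with LMNA at 0.44 ± 0.21 and LMNB2 at 0.31 ± 0.10. The 3 LMNA libraries (0.29 to 0.67) and the 3 LMNB2 libraries (0.22 to 0.42) lay above the highest GFP library (0.19), while LMNB1 (-0.01 to 0.21) overlapped GFP (-0.28 to 0.19). Summed over members, GFP held 317 ± 93.3 CPM, LMNB1 319 ± 54.9, LMNB2 397 ± 44.8 and LMNA 466 ± 126. The sums overlapped between GFP (226 to 412) and each lamin. In these bulk libraries, fewer cells with an RNA and less of it per cell cannot be told apart.

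**Figure D1:**
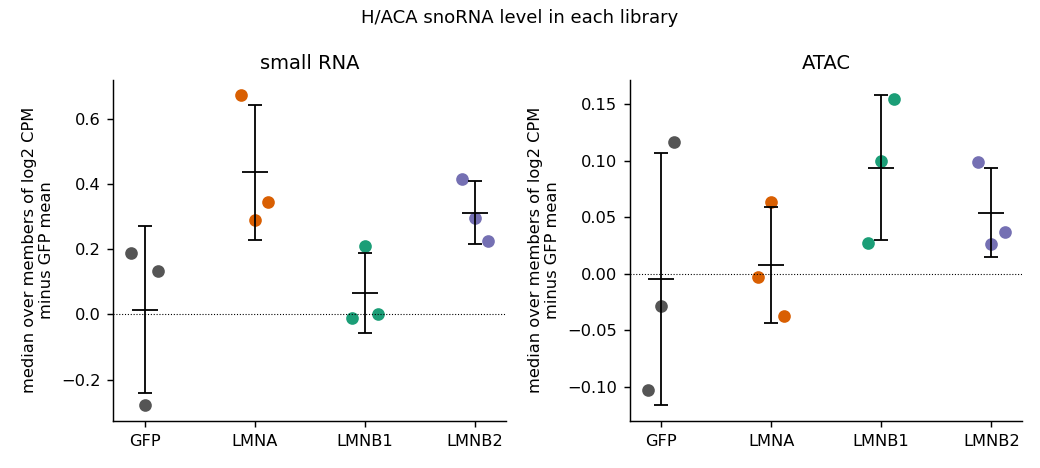
The median over H/ACA members of log2 CPM minus the GFP mean (y axis) is drawn for each library by group, for small RNA (left) and ATAC (right); points are libraries, black bars the mean and SD of 3. The LMNA and LMNB2 small RNA libraries lie between 0.22 and 0.67, above the GFP libraries, and ATAC levels stay between -0.10 and 0.15.

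Against GFP, members were called in the small RNA assay in LMNB2, where 14 intervals rose and 1 fell at an adjusted p under 0.05. These 15 of 131 tested members (11.5%) stand beside 2.66% of all 33893 tested features (1.91% higher and 0.752% lower). The members' median log2 fold change was 0.26, beside -0.04 over all features, and 98 of the 131 were positive. All 3 LMNB2 libraries lay above all 3 GFP libraries for 34 members and below for 3, beside 12.1% and 10.2% of all features. At an unadjusted p under 0.05, 34 members were higher and 4 lower, beside 9.58% and 10.4% of all features. The count of called members fell to 0 when only the 6 GFP and LMNB2 libraries were fitted, beside 0.0742% of all features. It was 4 when libraries were scaled by total counts, beside 0.832%. It was 1 without LMNB2 replicate 2 (0.138% of all features), 3 without LMNB2 replicate 3 (0.162%) and 6 without LMNB2 replicate 1 (0.462%). It was 7 without GFP replicate 2 (0.845%) and 31 without GFP replicate 3 (5.82%). The member median was 0.11 without GFP replicate 2 and 0.52 under scaling by total counts (0.19 over all features).

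SNORA49 had the smallest p-value. It lies at chr12:132031198-132031384 in an intron of EP400, the ATPase of a chromatin remodelling complex. Its CPM was 0.335, 0.367 and 0.434 in GFP and 0.808, 0.883 and 0.988 in LMNB2. LMNA (0.56, 0.359, 0.462) and LMNB1 (0.568, 0.453, 0.423) lay lower than every LMNB2 library and overlapped GFP. The log2 fold change in LMNB2 was 1.20 ± 0.19 (SE, adjusted p = 0.00441), and SNORA49 also differed among the 3 lamins (adjusted p = 0.0103). The LMNB2 call held in each of the 12 fits that left out 1 library.

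SNORA16A, 1 of 3 tested members in SNHG12 (chr1:28580894-28581079), guides pseudouridylation of the large subunit rRNA. Its CPM was 5.57, 5.04 and 4.57 in GFP and 9.85, 12.4 and 11.3 in LMNB2. LMNA (6.48, 6.73, 7.07) and LMNB1 (6.76, 6.73, 7.16) lay between, with no overlap with either. The log2 fold change was 1.14 ± 0.19 in LMNB2 (adjusted p = 0.00764), and in LMNA and LMNB1 it was 0.42 and 0.44, neither called (adjusted p = 0.895 and 0.861). The other 2 SNHG12 members, SNORA61 and SNORA44, were not called in LMNB2.

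Among members in ribosomal protein genes, SNORA6 in RPSA (chr3:39408365-39408564) stood at 2.1, 1.66 and 1.93 CPM in GFP and 3.36, 3.91 and 3.37 CPM in LMNB2. Its log2 fold change was 0.90 ± 0.17 (adjusted p = 0.0173). The RPSA neighbour SNORA62 (E2) stood at 3.83, 5.35 and 7.31 CPM in GFP and 5.4, 6.42 and 5.95 in LMNB2, a log2 fold change of 0.11 ± 0.22 (adjusted p = 0.831). SNORA10 in RPS2 (chr16:1962308-1962491) went from 1.37, 1.62 and 1.3 CPM in GFP to 2.44, 3.92 and 3.57 in LMNB2, a log2 fold change of 1.20 ± 0.23 (adjusted p = 0.0199). SNORA10B, a related sequence on chromosome 2 with no host assigned, rose by 1.20 as well (adjusted p = 0.0217), from 0.0859 to 0.18 CPM in GFP to 0.306 to 0.338 CPM in LMNB2. How reads of related copies were assigned is not given in the sources used here, so these 2 may share reads. SNORA21 in RPL23, a guide for the large subunit rRNA, was the most abundant called member, at 12, 11.1 and 9.03 CPM in GFP and 17.5, 18.2 and 21.4 CPM in LMNB2 (log2 fold change 0.82 ± 0.20, adjusted p = 0.0372). The call for SNORA21 held in 3 of the 12 fits that left out 1 library.

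SNORA69 was the one member called lower. It lies in RPL39, a large subunit ribosomal protein gene, at chrX:119787327-119787509, and guides a small subunit rRNA site. GFP libraries held 8.13, 6.17 and 7.15 CPM and LMNB2 libraries 4.14, 4.5 and 3.82 CPM, with no overlap. LMNB1 (5.18, 5.65, 6.15) also lay below GFP, by 0.34 on the log2 scale without a call (adjusted p = 0.861), and LMNA (7.42, 5.93, 6.54) overlapped it. The log2 fold change in LMNB2 was -0.78 ± 0.19 (adjusted p = 0.0384). It held in 4 of the 12 fits that left out 1 library and was lost under scaling by total counts, where the value was -0.54.

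Translation factor hosts gave 2 calls among 8 tested members, beside 2.66% of all features. SNORA67 in EIF4A1 stood at 3.16, 2.63 and 4.45 CPM in GFP and 6.65, 7.7 and 6.19 CPM in LMNB2 (log2 fold change 1.00 ± 0.21, adjusted p = 0.0221). SNORA48 of the same gene had a log2 fold change of 0.11 (adjusted p = 0.798). SNORA4 in EIF4A2 had the largest fold change of the called members, 1.38 ± 0.28 (adjusted p = 0.0126), on low levels of 0.0367 to 0.0601 CPM in GFP and 0.142 to 0.166 CPM in LMNB2. Its LMNA libraries (0.111 to 0.143 CPM) and LMNB1 libraries (0.0846 to 0.104 CPM) also lay above GFP, without a call (adjusted p = 0.694 and 0.85). The EIF4A2 neighbour SNORA81 (0.64 ± 0.20, adjusted p = 0.0901) lay above GFP in all 3 LMNB2 libraries, and SNORA63 had a log2 fold change of 0.23 (adjusted p = 0.506).

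SNHG hosts gave 4 called intervals among 24 tested, beside 2.66% of all features. They were SNORA16A, SNORA17A and 2 nested intervals of SNORA71B with the same counts. SNORA17A in SNHG7 stood at 0.55, 0.47 and 0.631 CPM in GFP and 1.15, 1.11 and 1.03 CPM in LMNB2 (log2 fold change 0.98 ± 0.18, adjusted p = 0.0128). SNORA71B in SNHG17, of a family that guides the small subunit rRNA, was at 3.06, 3.03 and 3.11 CPM in GFP and 5.37, 6.39 and 4.65 CPM in LMNB2 (0.83 ± 0.18, adjusted p = 0.0274). Other called members were SNORA23 in IPO7, a nuclear import receptor (0.96 ± 0.22, adjusted p = 0.0317), and SNORA5C in TBRG4 (0.70 ± 0.17, adjusted p = 0.0384). SNORA22 in the pseudogene CCT6P1, which has a close copy in CCT6P3, closed the list (1.06 ± 0.31, adjusted p = 0.0493) and kept its call in 1 of the 12 fits that left out 1 library. SNORA71B and SNORA5C were named after their values were seen.

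**Figure D2:**
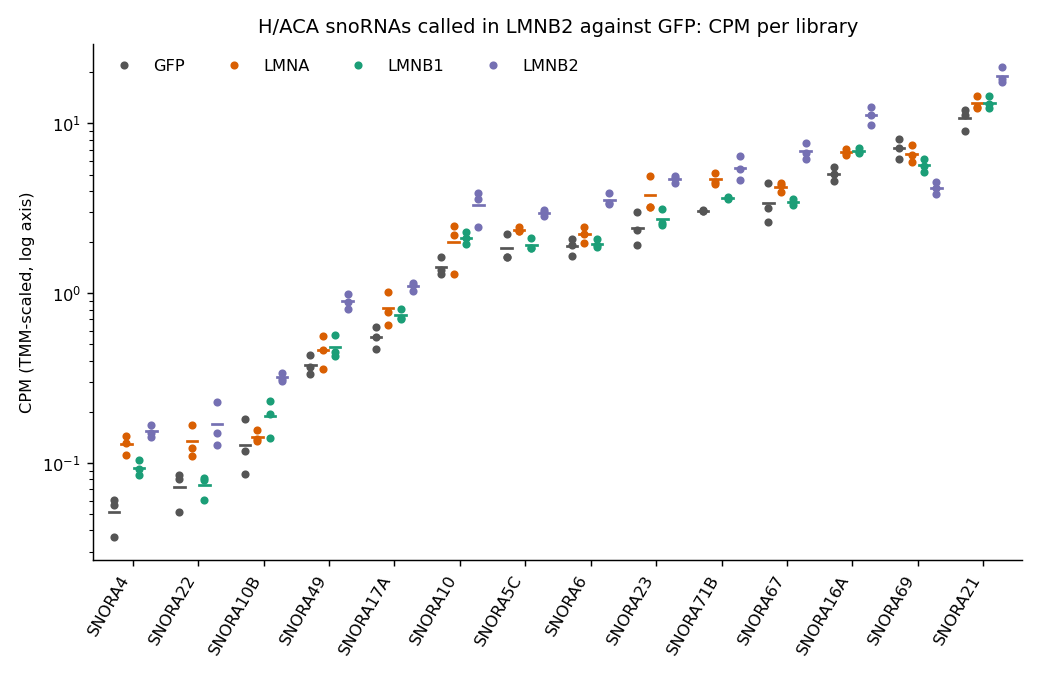
CPM per library on a log axis for the 14 H/ACA snoRNA names called in LMNB2 against GFP, ordered by GFP mean (1 of the 2 SNORA71B intervals is drawn); points are libraries and short lines the means of 3. LMNB2 lies above GFP for 13 names and below it for SNORA69.

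No host gene had 2 called members of different names. Of the 20 hosts with at least 2 tested names, 10 had 1 called name each, and the same 10 held 14 uncalled names. The difference between members of a host was not tested, and an uncalled member is not shown to be unchanged. By host kind, the median log2 fold change in LMNB2 was 0.41 for the 24 SNHG members, 0.36 for the 6 of TAF1D (0 called), 0.32 for the 8 of translation factor genes, 0.30 for the 19 of ribosomal protein genes and 0.12 for the 67 of other hosts (4 called). The 5 tested members with no host assigned had the higher median of 0.46 (1 called, beside 2.66% of all features). The DKC1 intron members SNORA36A and SNORA56, whose host encodes the pseudouridine synthase itself, had log2 fold changes of 0.19 and 0.49 (adjusted p = 0.675 and 0.46).

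**Figure D3:**
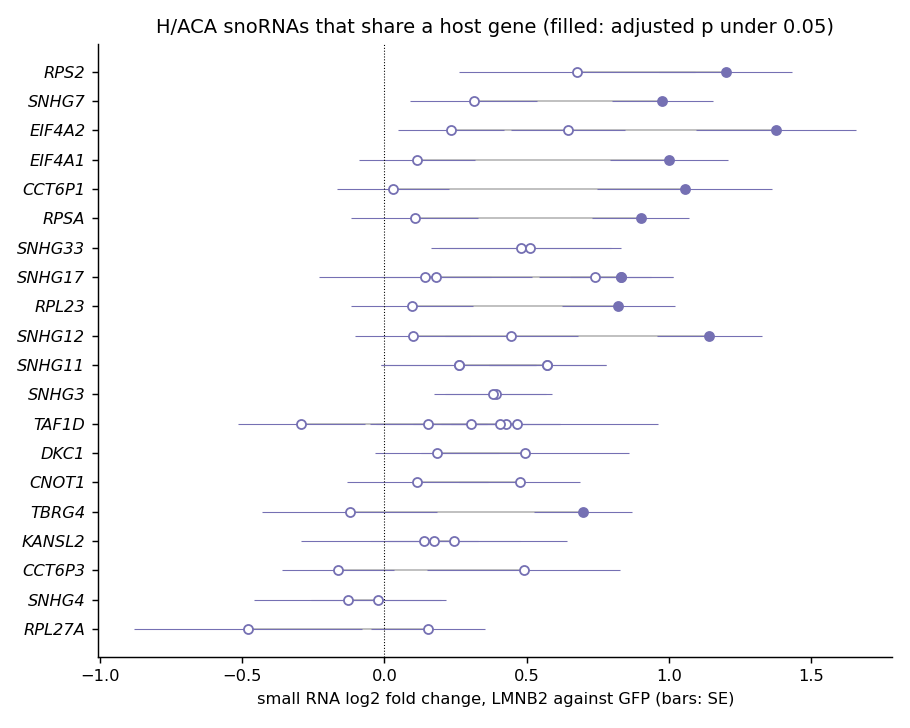
Small RNA log2 fold change in LMNB2 against GFP (x axis) for each tested member of the 20 hosts with at least 2 tested names (rows, ordered by median); bars are standard errors and filled points have an adjusted p under 0.05. In RPSA the filled point is SNORA6 at 0.90 and the open one SNORA62 at 0.11.

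SNORA73A and SNORA73B (U17/E1) were not called. SNORA73A, needed for early pre-rRNA cleavage and hosted by SNHG3, stood at 2.57, 2.7 and 2.1 CPM in GFP and 3.11, 3.37 and 3.21 CPM in LMNB2. Its LMNA libraries (3.98, 3.08, 3.21) and LMNB1 libraries (2.79, 3.09, 2.91) also lay above GFP. The log2 fold changes were 0.48 ± 0.18 in LMNA, 0.25 ± 0.18 in LMNB1 and 0.39 ± 0.18 in LMNB2 (adjusted p = 0.895, 0.864 and 0.228). Its neighbour SNORA73B overlapped GFP in every group, with 0.38 in LMNB2 (adjusted p = 0.316).

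Other RNAs with H/ACA domains moved by a similar median. The median log2 fold change in LMNB2 was 0.32 over 19 tested intervals of TERC and Cajal body RNAs. Of the 19, 3 (15.8%) were called higher and none lower, beside 1.91% and 0.752% of all features. The 3 called were SCARNA18 (1.12, adjusted p = 0.00441), SCARNA12 (0.90, adjusted p = 0.0221) and SCARNA10 (0.58, adjusted p = 0.0492). SCARNA12 and SCARNA10 were listed as carrying both H/ACA and C/D boxes. Over all 25 tested Cajal body RNAs, whichever box they carry, the median was 0.33. The same 3 were called there (12%), beside 2.66% of all features. Whether the shift goes with the H/ACA domain was not tested. TERC, listed as 2 intervals, had log2 fold changes of 0.14 and 0.15 (adjusted p = 0.662 and 0.655). C/D box snoRNAs had a median of -0.19 with 10 of 194 called (5.15%, 9 higher), beside 2.66% of all features. The 292 tested lncRNA features of SNHG genes, which include spliced hosts, had a median of -0.19 with 5 called (1.71%, 4 higher and 1 lower). Their fold changes were split, with quartiles of -0.40 and 0.41, 98 positive and 194 negative. At an unadjusted p under 0.05, 75 of them were higher and 26 lower, beside 9.58% and 10.4% of all features. The median is thus no sign that these features fell as a set. The difference between these classes was not tested.

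LMNA overexpression gave 0 called members among 131 in edgeR's quasi-likelihood fit, beside 0% of all 33893 features. The members' median log2 fold change was 0.41, beside -0.05 over all features, and 119 of 131 were positive. At an unadjusted p under 0.05 there were 42 members, all higher, beside 2.83% of all features higher and 2.63% lower. This count of 42 was 17 without LMNA replicate 1, 24 without GFP replicate 2 or with only the 6 LMNA and GFP libraries, 22 without lncRNA features, 26 under scaling by total counts and 72 without a count filter. All 3 LMNA libraries lay above all 3 GFP libraries for 32 members and below for 0, beside 4.16% and 5.34% of all features. DESeq2 called 2 members, all higher, beside 0.207% of all features. The fit without a count filter called 6 (0.0737% of all features), and the fit without GFP replicate 3 called 7 (0.842%).

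SNORA57, in CSKMT, a gene for a mitochondrial lysine methyltransferase, was the highest by fold among members with non-overlapping groups. It stood at 0.438, 0.279 and 0.315 CPM in GFP and 2.07, 1.05 and 0.93 CPM in LMNA, a log2 fold change of 1.94 ± 0.55 (adjusted p = 0.882). SNORA64 in RPS2 stood at 12, 5.92 and 9.69 CPM in GFP and 33.6, 13.9 and 14.5 CPM in LMNA (1.17 ± 0.42, adjusted p = 0.895). SNORA7B in RPL32P3 and SNORA77B in RANBP1 were next, at 1.07 and 1.04 (adjusted p = 0.895 for both). LMNA replicate 1 was the highest LMNA library for each of these 4. All 4 were also among the 29 of 131 tested members (22.1%) that were highest in the same library of every group, GFP included. That share stood beside 1.96% of all tested features and is described under other observations. These 4 are therefore not separate observations of a change in LMNA. SNORA31 in TPT1 had log2 fold changes of 0.55 in LMNA, 0.02 in LMNB1 and 0.46 in LMNB2, with overlapping groups in each and no call.

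LMNB1 overexpression gave 0 called members, beside 0.0384% of all features, and DESeq2 called 0 as well, beside 0.062%. The median log2 fold change of 0.03 stood beside -0.05 over all features, and 75 of 131 members were positive. At an unadjusted p under 0.05 there were 5 of 131 members, all higher. Of all 33893 features, 756 (2.23%) were higher and 1111 lower at this threshold. Libraries were fully above GFP for 8 members and fully below for 1, SNORA69, beside 4.76% and 5.29% of all features. SNORA10 was among those above, at 2.28, 2.11 and 1.96 CPM (log2 fold change 0.56 ± 0.23, adjusted p = 0.861).

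**Figure D4:**
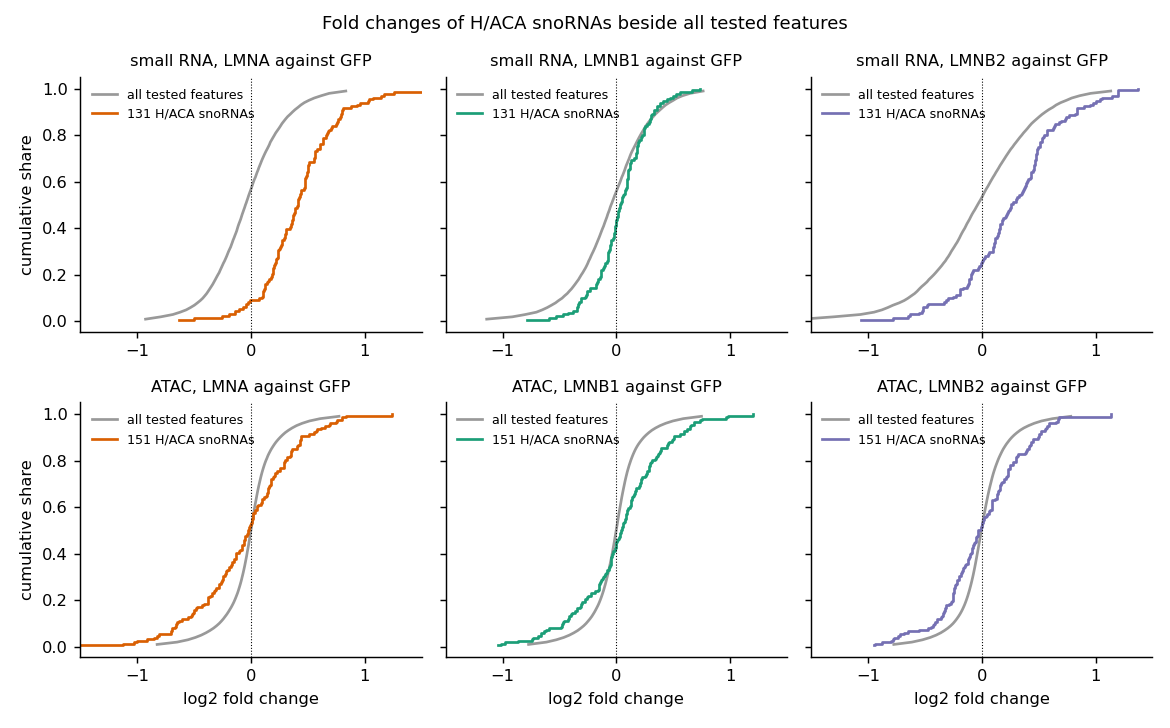
Cumulative share (y axis) of log2 fold changes (x axis) for the tested H/ACA members (coloured; 131 in small RNA, 151 in ATAC) and all tested features (grey, drawn from their quantiles), by lamin and assay. The small RNA curves of LMNA (median 0.41) and LMNB2 (median 0.26) lie to the right of all features, and the ATAC curves cross near 0.

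The lamins were then compared with one another in 1 joint test that does not use GFP as reference. It called 5 members, beside 1.93% of all features: SNORA49, SNORA6, SNORA67, SNORA10B and SNORA54. For the first 4, LMNB2 was the highest lamin in all of its libraries. SNORA54 in NAP1L4, a histone chaperone gene, was highest in LMNA instead, at 0.884, 0.566 and 0.719 CPM, beside 0.399 to 0.47 CPM in LMNB1, 0.355 to 0.41 CPM in LMNB2 and 0.345 to 0.498 CPM in GFP (adjusted p = 0.019). The count was 0 without LMNB2 replicate 2 (0.316% of all features), without LMNB2 replicate 3 (0.325%) or under scaling by total counts (0.811%). It was 22 without GFP replicate 3 (6.16%) and 40 when only lamin libraries were fitted (12.04%). It was 1 to 3 without any 1 of the 3 LMNA libraries, the 3 LMNB1 libraries or LMNB2 replicate 1. In these last fits the share of all features called was 0.595% to 1.35%.

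The ATAC assay counted reads in windows that extend each interval by 125 bp on both sides. In GFP the median over the 184 members counted once was 0.131 CPM per kb, beside 0.196 in the 50 kb around them, and 23 windows exceeded their surroundings more than 2-fold while 128 lay below them. The density differed by place: windows within 1 kb of the start of a host of known strand had a median of 1.52 CPM per kb (n = 4), those from 1 to 5 kb 0.216 (n = 42), those from 5 to 50 kb 0.122 (n = 54) and those farther 0.0954 (n = 22). Across these 122 members Spearman's rho between density and distance was -0.53. The small RNA level had a rho of -0.48 with distance. Across the 184 members the small RNA and ATAC levels had a rho of 0.24. These are descriptions across loci that share libraries.

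**Figure D5:**
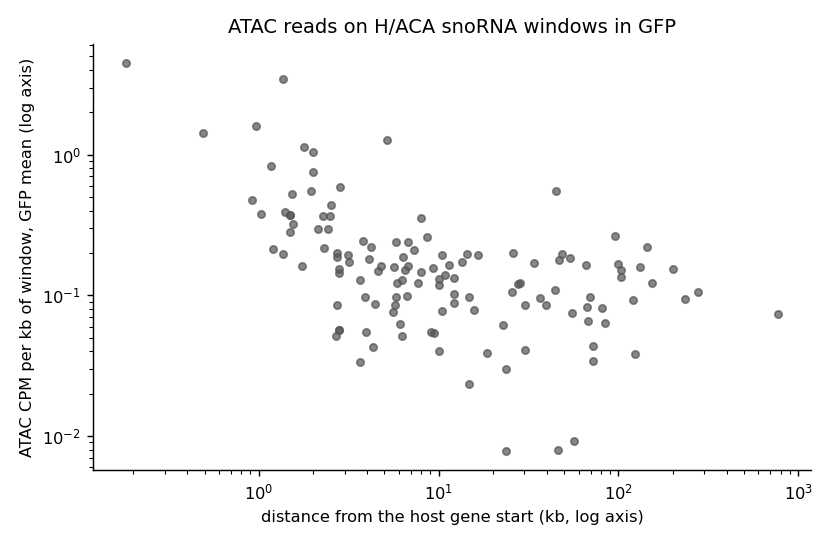
ATAC CPM per kb of window in GFP (mean of 3 libraries, log axis) against the distance from the host gene start (log axis) for members with a host of known strand; each point is 1 member window. Windows within 1 kb have a median of 1.52 and those beyond 50 kb of 0.0954.

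The 5 densest windows in GFP were those of SNORA109, SNORA57, SNORA78, SNORA17A and SNORA120. SNORA109 (chromosome X, no host assigned) stood at 12.8, 18 and 16.5 CPM per kb in GFP and 9.21, 9.82 and 8.56 in LMNB2. Its LMNA libraries (11, 14, 21.5) and LMNB1 libraries (13.5, 13.4, 8.25) overlapped GFP. The log2 fold change in LMNB2 was -0.78 ± 0.28 and was not called (adjusted p = 0.862), while a fit of the 6 GFP and LMNB2 libraries alone called it (-0.77, adjusted p = 0.000461). SNORA57 (5.02, 4.7, 3.66 CPM per kb in GFP) and SNORA17A (3.7, 3.63, 3.02) lie near the starts of CSKMT and SNHG7. SNORA120 in VWF, the gene of von Willebrand factor, had 3.17, 2.85 and 2.94 CPM per kb in ATAC and no count in any small RNA library.

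No member was called in ATAC against GFP in any lamin. Of 151 tested members, 6 had an unadjusted p under 0.05 in LMNA, 2 in LMNB1 and 5 in LMNB2, beside 5.19%, 4.78% and 5.72% of all 163786 tested windows, of which 0.000611%, 0.00305% and 0.00244% were called. Median log2 fold changes were -0.02, 0.04 and -0.03, beside 0.00 over all windows in each. The joint test among lamins called 0 members, beside 0.0916% of all windows, and 2 had an unadjusted p under 0.05, beside 6.24%. DESeq2 called 0 members in these 4 ATAC tests. Members called in small RNA differed in ATAC depth. The SNORA17A window held 253 to 268 counts per GFP library and 399 to 455 per LMNB2 library, with a log2 fold change of 0.05 ± 0.12. By contrast, the SNORA49 window held 2 to 10 counts per GFP library and 6 to 14 per LMNB2 library, with a log2 fold change of 0.01 ± 0.66. For SNORA16A the value was -0.15 ± 0.22 and for SNORA69 -0.16 ± 0.49. At this depth, changes of the size seen in RNA were not detectable at SNORA49 or SNORA69.

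In the denser windows, SNORA10 was lower in LMNA in all 3 libraries (0.795, 0.905 and 0.592 CPM per kb, beside 1.21, 1.04 and 0.987 in GFP), with a log2 fold change of -0.50 ± 0.22 (adjusted p = 0.947). SNORA50C and SNORA24 lay below GFP in all 3 LMNB2 libraries (-0.22 and -0.25, adjusted p = 0.907 and 0.909). SNORA73A (0.38) and SNORA21B (0.30) lay above GFP there, without a call (adjusted p = 0.905 and 0.923). Across the 97 members counted once and tested in both assays, Spearman's rho between the small RNA and ATAC log2 fold changes was 0.04 in LMNA, -0.10 in LMNB1 and 0.07 in LMNB2.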

How the data were processed

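The deposited tables hold whole-number counts per feature for 12 small RNA and 12 ATAC libraries, 4 groups of 3 in each assay. Features were defined by the authors on GRCh38, per the submitters' processing notes; the aligner, the counter, strand use and the treatment of reads shared by copies are not given in the sources used here. Members are printed from fits of the whole tables. edgeR 4.0.16 (filterByExpr, TMM, robust quasi-likelihood fit) was run on all 12 libraries of an assay, with Benjamini-Hochberg adjustment over all 33893 small RNA or 163786 ATAC features tested. Fold changes used a prior count of 2, and a call is an adjusted p under 0.05. Standard errors are the unshrunk fold change divided by the root of the F statistic. The fits were tested on simulated counts. DESeq2 1.42.0, other scalings and filters, fewer libraries, left-out libraries and merged loci were tried as alternatives. Hosts and starts came from RefSeq GRCh38.p14. The members and lists were chosen with earlier results of these data known. Members were named if called (the 10 largest changes where more were called), highest in GFP by CPM per kb (10 in small RNA, 5 in ATAC), fixed for role or host, or among the 4 highest and 4 lowest fold changes with a mean of at least 50 counts and non-overlapping groups. No replicate pair agreed within counting noise (chi-square per degree of freedom at least 3.18).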

Additional observations from a re-analysis of the deposited data

How the results depend on the processing

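In small RNA, called members in LMNB2 numbered 15 in the reported fit, 17 with DESeq2 size factors, 18 with the DESeq2 test, 19 without lncRNA features, 0 with only the libraries compared, 4 with total counts only, 2 at an adjusted p under 0.01 and 1 to 31 when 1 library was left out. The share of all features called in LMNB2 was 2.66% in the reported fit, 2.70% with DESeq2 size factors and 3.52% with the DESeq2 test. It was 3.83% without lncRNA features, 0.0742% with only the libraries compared and 0.832% with total counts only. With 1 library left out it ran from 0.138% to 5.82%. In LMNA, 0 became 6 without a count filter (0.0737% of all features) and 2 with the DESeq2 test (0.207%). When 1 library was left out it became 0 to 7 (0% to 0.842% of all features). In LMNB1 the count was 0 in all alternatives run. Among the lamins, 5 became 0 under total-count scaling, 17 without a count filter and 11 with the DESeq2 test. It became 40 with only the libraries compared, 0 at an adjusted p under 0.01 and 0 to 22 when 1 library was left out. The share of all features called among the lamins was 1.93% in the reported fit and 0.811% under total-count scaling. It was 1.11% without a count filter, 2.52% with the DESeq2 test and 12.04% with only the libraries compared. With 1 library left out this share ran from 0.316% to 6.16%. The member median in LMNB2 was 0.26 and moved to 0.52 with total counts only, which moved the median of all features from -0.04 to 0.19; over left-out libraries it ran from 0.11 to 0.38, and in LMNA from 0.28 to 0.55. The LMNB1 median ran from -0.10 to 0.12. In ATAC, the LMNB1 median of 0.04 moved to 0.22 with total counts only (all windows 0.19), and the medians of LMNA and LMNB2 became 0.06 and 0.08 (all windows 0.09 and 0.11). LMNB2 gained 1 ATAC call with only the libraries compared, beside 0.0426% of all windows. Replicate numbers gave no strong sign of pairing the samples. Same-numbered libraries had deviation correlations of -0.04 to 0.23 in small RNA and -0.08 to 0.19 in ATAC, with 2 of 18 above 0.1 in each. With the number as a replicate block, 12 members were called in LMNB2 and 3 among the lamins, beside 2.15% and 1.64% of all features. Of 3426 recomputed fold changes of named members, 3235 counted as the same and 102 as moved in value. A further 73 lost a call, 16 gained one and no called one reversed. Of 74 recomputed GFP levels, 1 moved beyond the SD (SNORA120 in ATAC, 2.80 CPM per kb with total counts only). Depth limits ATAC, where the members share 4671 to 9075 counts per library. The cause of these changes was not tested.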

Other observations

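A set of members varied together among libraries of 1 group. For SNORA2C the highest library of LMNB1 was replicate 2, and replicate 1 was highest in the other groups. The same 4 libraries were the highest of their groups for 29 of the 131 tested members (22.1%), beside 665 of 33893 tested features (1.96%). SNORA7A, hosted by RPL32, was among them, at 27.6, 7.97 and 10.6 CPM in GFP. Its CPM was 14.1, 28 and 10.1 in LMNB1, 39.8, 19.1 and 19.5 in LMNB2, and 66.8, 25.5 and 17.7 in LMNA. SNORA18, SNORA64, SNORA20, SNORA74D, SNORA57, SNORA7B and SNORA77B were others. These 4 libraries were picked after the values were seen, with SNORA2C in view.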
